A study of Mus musculus with 12 samples.

Results

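Cholesterol synthesis genes were followed in antigen-responding CD4+ T cells after blockade of the Lag3 and PD-1 pathways. The genes were chosen by name, as a list of sterol genes known to be controlled by the transcription factor SREBP2: Hmgcs1, Idi1, Fdps, Fdft1, Sqle, Lss, Cyp51 and Insig1. All 8 were found among the 56691 genes of the count table, and all 8 passed the filter on low counts that left 15138 genes to test. The list was read for synthesis, since none of its 8 genes acts in uptake; uptake genes were described from a separate list.

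Samples were 12 Tg4 Nr4a3-Tocky Il10-GFP mice, with 3 mice in each of 4 groups. Both sexes were used, as young adults, by the account of the study's methods. Tg4 mice carry a transgenic T cell receptor for a peptide of myelin basic protein (MBP), Nr4a3-Tocky reports recent receptor signalling with a fluorescent Timer protein that matures from blue to red, and Il10-GFP reports transcription of Il10. All mice were given 4 mg/kg of the [4Y]-MBP peptide under the skin and, 24 h later, 0.5 mg of antibody into the peritoneum, followed after 30 min by 0.4 mg/kg of the peptide in the other flank. The antibody was an isotype pool (rat IgG1 and rat IgG2a), anti-Lag3 (clone C9B7W), anti-PD-L1 (clone MIH5) or both blocking antibodies mixed in equal parts, called co-blockade (CB). Spleens were taken 12 h after the second peptide dose, CD4+ T cells positive for both Timer colours were sorted, and the 3′ ends of their mRNA were sequenced. The sort kept responding cells only, so that cells without Timer protein were not measured.

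T cells that leave rest and prepare to divide need cholesterol for new membrane. The pathway starts from acetyl-CoA, passes through mevalonate and isoprenoid units to the linear hydrocarbon squalene, and closes squalene into the sterol rings. When sterol in the endoplasmic reticulum is low, SREBP2 is carried by its escort Scap to the Golgi, cut there, and enters the nucleus to switch on the genes of the pathway; when sterol is high, Insig proteins hold the complex back. Insig1 is itself a target of SREBP2 and so closes a feedback loop.

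Differences in these genes were few. In CB against isotype, Cyp51 rose 1.64-fold, and it was the 1 gene of 8 called. Lss had a larger ratio, 2.40-fold, that fell just short of the threshold, with an adjusted p of 0.0531. In the other 6 genes the CB and isotype mice overlapped and the 95% interval of the difference included 0. No gene of the 8 was called in any of the other 6 comparisons.

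Each of the 8 is a protein-coding gene, and positions are on GRCm38 in the GENCODE vM21 annotation. Of the early enzymes, Hmgcs1 lies at chr13:119690379-119708260 (plus strand), Idi1 at chr13:8885501-8892451 (plus strand) and Fdps at chr3:89093588-89101959 (minus strand). Fdft1 lies at chr14:63145150-63179578 (minus strand) and Sqle at chr15:59315077-59331192 (plus strand). The ring enzymes are Lss at chr10:76531588-76557138 (plus strand) and Cyp51 at chr5:4081145-4104746 (minus strand), and Insig1 lies at chr5:28071363-28078662 (plus strand).

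Promoter sequence was matched for 5 of the 8 genes (Hmgcs1, Idi1, Lss, Cyp51 and Insig1) in RefSeq, build GRCm38.p6, as 300 bases from 250 before to 50 after the start of the gene. It is shown as background, because these genes were listed for their known control by SREBP2. Short DNA words were searched in this window, and the list was not drawn from them. Only bases outside annotated exons are printed, which leaves none for Idi1. Capitals mark the words searched on both strands: TCACNCCAC (a sterol response element), CCAAT (bound by NF-Y, a usual partner of SREBP2), GGGCGG (bound by Sp1) and CACGTG (an E-box); a word on the minus strand of the gene appears as its reverse complement. The windows, 5′ to 3′ along each gene, were chr5:4104747-4104947 (minus strand) for Cyp51, chr10:76531355-76531587 (plus strand) for Lss, chr13:119690101-119690350 (plus strand) for Hmgcs1 and chr5:28071162-28071362 (plus strand) for Insig1.
Cyp51: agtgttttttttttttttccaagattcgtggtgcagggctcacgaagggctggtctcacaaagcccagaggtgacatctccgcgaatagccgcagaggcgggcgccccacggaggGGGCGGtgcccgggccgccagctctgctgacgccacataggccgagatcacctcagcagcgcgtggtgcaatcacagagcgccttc
Lss: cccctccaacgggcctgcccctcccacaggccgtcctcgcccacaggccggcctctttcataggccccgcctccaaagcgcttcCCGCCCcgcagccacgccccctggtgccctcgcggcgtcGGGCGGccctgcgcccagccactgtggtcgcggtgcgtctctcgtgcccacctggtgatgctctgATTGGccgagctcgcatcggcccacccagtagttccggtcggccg
Hmgcs1: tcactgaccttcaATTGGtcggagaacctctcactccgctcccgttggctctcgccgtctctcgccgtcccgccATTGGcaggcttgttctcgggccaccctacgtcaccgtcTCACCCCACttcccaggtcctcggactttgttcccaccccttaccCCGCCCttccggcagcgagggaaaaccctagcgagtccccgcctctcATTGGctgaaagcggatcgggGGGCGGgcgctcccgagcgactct
Insig1: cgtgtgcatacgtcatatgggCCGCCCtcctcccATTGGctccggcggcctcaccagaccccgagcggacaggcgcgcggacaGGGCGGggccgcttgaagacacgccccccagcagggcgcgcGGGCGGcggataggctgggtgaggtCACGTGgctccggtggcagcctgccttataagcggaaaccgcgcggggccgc

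Of these 5 windows, that of Hmgcs1 held TCACNCCAC once, with its leftmost base at -137 from the start, and this word was found in 1.24% of the 32851 mouse promoters of the table. All 5 windows held CCAAT, against 37.4% of promoters, and all 5 held GGGCGG, against 35.7%; the Cyp51 CCAAT, at -29, lies in the stretch not printed. Insig1 alone of the 5 held the E-box, at -101, found in 7.15% of promoters. A match is a description of the letters and not of a bound site.

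Levels are normalised read counts (CPM), scaled to library size by the trimmed mean of M-values (TMM). A gene was called where the quasi-likelihood test of edgeR gave a p that stayed under 0.05 after Benjamini-Hochberg adjustment over the 15138 genes. Depth was 16449370 to 22151025 reads on genes per sample, and 1 gene held between 14.3% and 21.9% of them. Counts behind the levels ran from 19 to 192 reads per sample for Idi1, the least covered of the 8, and from 926 to 2677 for Cyp51, so values of Idi1 are the least precise. Reads were made by PCR without molecular identifiers, so that they are not independent molecules. Markers of CD4+ T cells were abundant in all 12 samples, with a summed level of 3714 to 4265 CPM over 8 genes. Of the other cell types, 6 erythroid markers summed to 149.7 to 451 CPM and 2 CD8 genes to 24.6 to 46.4 CPM. Lower were 6 B cell (1.62 to 23.6 CPM), 8 myeloid (5.76 to 24.5 CPM), 3 NK cell (up to 4.35 CPM) and 3 platelet markers (up to 3.31 CPM).

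The comparison of CB with isotype asks what blocking both pathways changes in responding cells. The ring enzymes are described at the start because the results turn on them. Cyp51, lanosterol demethylase, removes a methyl group from the ring system of lanosterol. Its level was 58.5, 58.6 and 74.1 CPM in the isotype mice and 109.7, 80.5 and 123 CPM in the CB mice. Every CB mouse was above every isotype mouse, with the CB mouse of replicate 2 the lowest of its group. The means were 63.7 ± 8.94 CPM (SD, n = 3) and 105 ± 21.9 CPM (SD, n = 3). The log2 fold change was 0.71 (SE 0.16, 95% interval 0.38 to 1.05), with an adjusted p of 0.00877. Over all genes, 2.33% were called higher in CB against isotype, so that 1 of 8 is a single gene set against that background.

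The call on Cyp51 held in 9 of the 12 fits that left out 1 mouse. Its adjusted p was 0.0552 without isotype replicate 1, 0.0516 without isotype replicate 2 and 0.0995 without CB replicate 3, while the log2 fold change stayed between 0.58 and 0.87 whichever of the 12 samples was left out. DESeq2 tested against a log2 fold change of 0.2 did not call it either (0.197). Cyp51 and Akap9, which lie on opposite strands, overlap at the end of Cyp51 over 166 bases of transcript, and the strand setting of the counting is not given in the sources used here. Akap9 itself was at 60.6, 51.5 and 52.8 CPM in isotype and at 56.6, 55.9 and 56.1 CPM in CB, a log2 fold change of 0.03 (95% interval -0.30 to 0.36).

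Lss, lanosterol synthase, folds oxidised squalene into lanosterol, the step just before Cyp51. It was at 5.08, 9.50 and 6.83 CPM in isotype and at 15.6, 16.7 and 19.1 CPM in CB. The groups did not overlap, and the lowest CB mouse stood well above the highest isotype mouse. The log2 fold change was 1.26 (SE 0.38, 95% interval 0.49 to 2.03), and the adjusted p of 0.0531 left it uncalled. It passed the threshold in 9 of 22 alternatives, among them DESeq2, at an adjusted p of 0.0271, and the fits without anti-PD-L1 replicate 1, 2 or 3, at 0.0313, 0.0467 and 0.0364. Lss and Cyp51 were the 2 of 8 genes in which every CB mouse was above every isotype mouse, against 10.4% of all genes.

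Sqle, squalene epoxidase, adds oxygen to squalene and is a control point of the pathway. It was at 20.8, 24.4 and 42.6 CPM in isotype and at 48.5, 31.1 and 45.1 CPM in CB. The groups overlapped, because isotype replicate 3 lay above CB replicate 2. The log2 fold change was 0.50 (95% interval -0.02 to 1.03), with an adjusted p of 0.360.

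No enzyme before squalene was called. Hmgcs1, the cytosolic synthase that joins acetyl units to form HMG-CoA, was at 77.2, 79.3 and 86.2 CPM in isotype and at 91.4, 81.8 and 99.0 CPM in CB. Its log2 fold change of 0.17 had a 95% interval of -0.13 to 0.46, the narrowest of the 8, with an upper bound of 1.37-fold. Fdps, which makes farnesyl pyrophosphate, the branch point towards sterols and protein prenylation, was at 37.8, 26.0 and 35.3 CPM in isotype. In CB it was at 36.1, 24.8 and 47.4 CPM, a spread wider than the difference between the groups, and its log2 fold change was 0.13 (95% interval -0.35 to 0.60).

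Idi1, the isomerase of the isoprenoid units, was low in all samples, at 3.62, 1.84 and 3.97 CPM in isotype and at 0.995, 2.98 and 4.84 CPM in CB. The CB mice spread from the lowest level of all 12 mice to one above every isotype mouse, and the 95% interval of the difference ran from -1.78 to 1.58 on the log2 scale, so that sizeable changes in either direction remain possible. Fdft1, squalene synthase and the enzyme committed to sterols, was at 11.3, 16.6 and 7.84 CPM in isotype and at 11.4, 11.5 and 11.6 CPM in CB. Its log2 fold change was -0.05 (95% interval -0.87 to 0.77). Fdft1 values are uncertain, because 774 bases of its transcript lie opposite the transcript of Ctsb, which had 40603 reads over the 12 samples against 2664 for Fdft1. Fdps, Fdft1 and Idi1 also have near-identical pseudogene copies, which held 0 to 35 reads each. Only uniquely mapped reads were counted, so reads that match a copy equally well are in neither count. A further protein-coding gene overlaps Fdps on the same strand, with a match of 929 bases, and held 0 reads.

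Insig1, the sterol-sensing retention protein, was at 18.9, 21.8 and 16.6 CPM in isotype and at 21.2, 17.9 and 27.2 CPM in CB. The groups overlapped, and the log2 fold change was 0.21 (95% interval -0.32 to 0.75). Over the whole list, 6 of 8 log2 fold changes were above 0, with a median of 0.19, where 48.8% of all genes were above 0 and the median of all genes was 0.

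**Figure D1:**
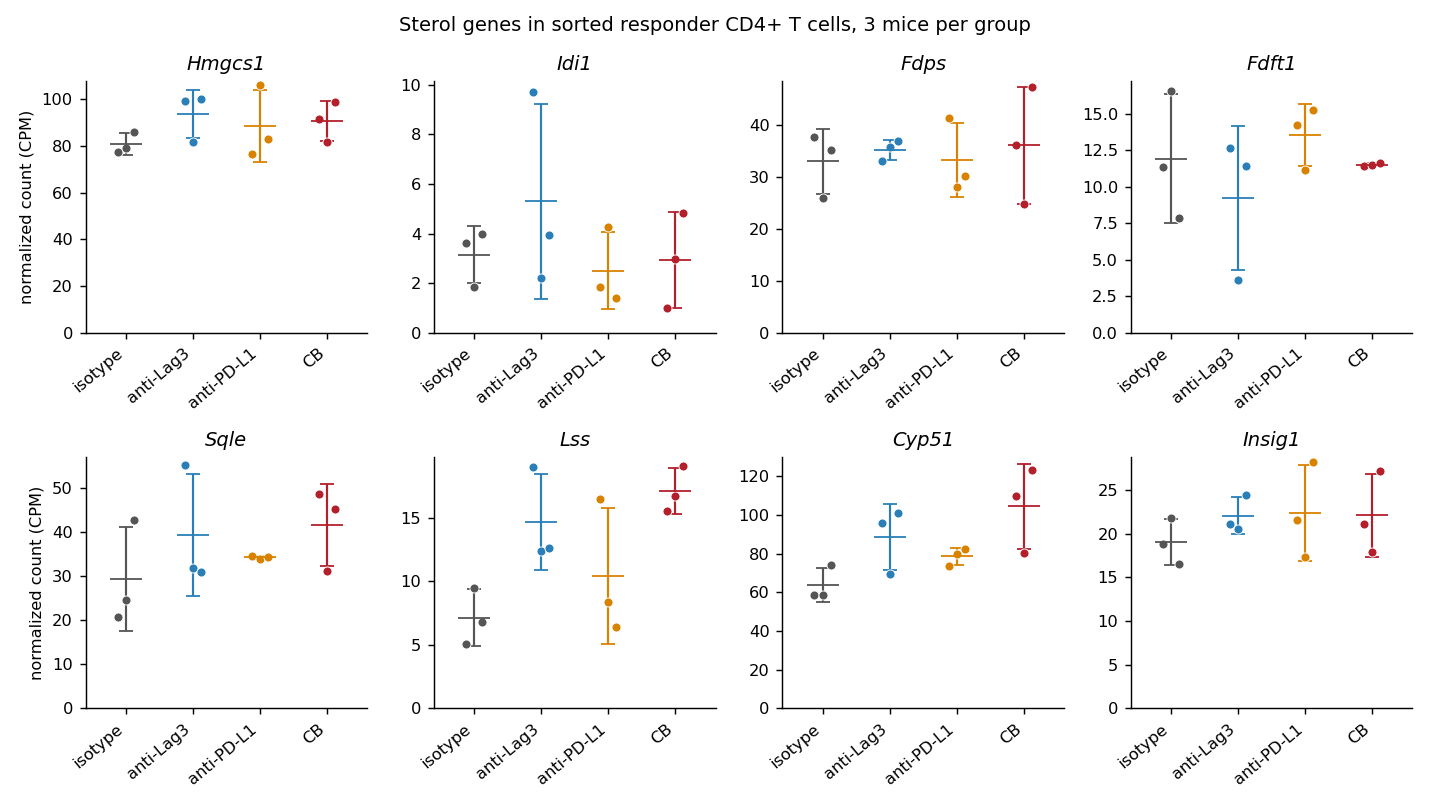
Normalized count (CPM, linear axis from 0) of each of the 8 genes in each mouse, by group; points are mice, horizontal dashes group means and bars 1 SD (n = 3). In Lss and Cyp51 the CB mice (15.6 to 19.1 and 80.5 to 123 CPM) sit above all isotype mice (5.08 to 9.50 and 58.5 to 74.1 CPM), while in the other 6 genes the groups overlap.

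Summed levels of cell type markers also differed between the groups. The 6 erythroid markers summed to 240.7 to 451 CPM in isotype and 216 to 289 CPM in anti-Lag3. They summed to 171 to 217 CPM in anti-PD-L1 and 149.7 to 198 CPM in CB. In CB against isotype, 2 of the 6, the globin genes Hbb-bs and Hbb-bt, were called lower, where 1.96% of all genes were. The 8 CD4+ T cell markers summed to 4092 to 4265 CPM in isotype and 3714 to 3746 CPM in CB. Of these, 2 of the 8, Cd4 and Cd3e, were called lower, against the same 1.96%. The study also lists Cd4 among downregulated genes of receptor signalling. The 2 CD8 genes summed to 40.9 to 45.3 CPM in isotype, 29.2 to 46.4 CPM in anti-Lag3, 24.6 to 30.5 CPM in anti-PD-L1 and 25.0 to 33.2 CPM in CB, with no overlap between isotype and CB and neither gene called. No marker of these 3 lists was at 0 in all mice of a group. The 8 myeloid markers summed to 6.67 to 12.6 CPM in isotype, 6.33 to 11.9 CPM in anti-Lag3, 14.5 to 24.5 CPM in anti-PD-L1 and 5.76 to 11.9 CPM in CB, so that the anti-PD-L1 mice stood above the rest. Of these 8, 2 were at 0 in all CB mice and 1 in all isotype mice. The part of these shifts in the values of Cyp51 and Lss was not tested. In bulk samples such as these, fewer cells of a type and less RNA per cell cannot be told apart.

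The single antibodies ask what each pathway does alone. Neither gave a called change in the 8 genes by edgeR, DESeq2 or limma, and over all genes 0% were called for anti-Lag3 and 0.0330% for anti-PD-L1 against isotype. At an unadjusted p under 0.05 by edgeR, 2 of the 8 were higher with anti-Lag3 and 0 with anti-PD-L1, where 5.21% and 7.84% of all genes passed in either direction. These comparisons share the isotype mice with that of CB, so their values are set side by side and are not separate evidence.

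With anti-Lag3, Lss was at 19.0, 12.4 and 12.7 CPM, so that every mouse was above every isotype mouse, the only gene of the 8 to do so, as did 5.25% of all genes. Its log2 fold change was 1.04 (95% interval 0.27 to 1.81), with an adjusted p of 0.805. Cyp51 was at 95.9, 69.3 and 101 CPM, of which replicate 2 lay within the isotype range, and its log2 fold change was 0.48 (95% interval 0.14 to 0.81). Sqle was at 55.1, 31.7 and 30.9 CPM, with 1 high mouse and 2 inside the isotype range, a log2 fold change of 0.42 (95% interval -0.11 to 0.95).

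Hmgcs1 was at 99.3, 81.9 and 99.99 CPM with anti-Lag3, a log2 fold change of 0.21 (95% interval -0.08 to 0.51). Idi1 was at 9.72, 2.23 and 3.94 CPM, where replicate 1 was the highest of all 12 mice, and Fdft1 at 12.7, 3.61 and 11.4 CPM, where replicate 2 was the lowest. For both, the interval of the difference included 0. Fdps, at 33.1, 35.8 and 36.9 CPM, and Insig1, at 21.2, 20.5 and 24.5 CPM, differed from isotype by 0.09 and 0.21 on the log2 scale, with intervals that included 0.

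With anti-PD-L1, Cyp51 was at 73.7, 80.0 and 82.1 CPM, with a log2 fold change of 0.30 (95% interval -0.03 to 0.64). Lss was at 16.5, 8.41 and 6.42 CPM, with replicate 1 high and the other two inside the isotype range, and its log2 fold change was 0.55 (95% interval -0.22 to 1.32). Sqle was alike in all 3 mice, at 34.5, 33.9 and 34.4 CPM, inside the wide isotype range.

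Hmgcs1, at 76.6, 106 and 82.8 CPM, and Insig1, at 21.6, 17.3 and 28.2 CPM, each had 1 mouse above the rest of its group. Fdps was at 41.4, 28.1 and 30.2 CPM, Fdft1 at 14.2, 11.2 and 15.2 CPM and Idi1 at 1.86, 4.26 and 1.41 CPM. The 95% interval of the difference from isotype included 0 for all 8 genes. The median log2 fold change of the 8 was 0.32 with anti-Lag3, 0.21 with anti-PD-L1 and 0.19 with CB, against 0 over all genes each time.

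**Figure D2:**
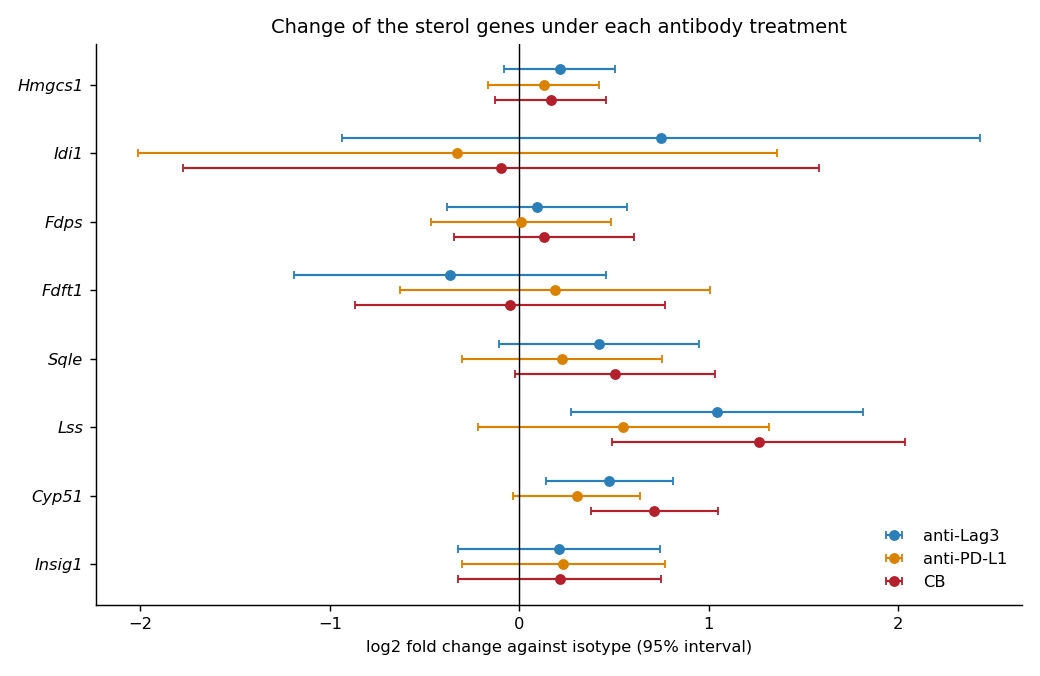
Log2 fold change against isotype (horizontal axis) of the 8 genes with anti-Lag3, anti-PD-L1 and CB; points are edgeR estimates from 3 mice per group and bars 95% intervals. Intervals clear of 0 are those of Lss and Cyp51 with anti-Lag3 (1.04 and 0.48) and with CB (1.26 and 0.71), and of these the CB value of Cyp51 alone was called.

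Comparing CB with each antibody alone asks what the second antibody adds. No gene of the 8 was called against anti-PD-L1 or against anti-Lag3, by edgeR, DESeq2 or limma, where 0.370% and 0.694% of all genes were. Cyp51 had a log2 fold change of 0.41 against anti-PD-L1 (95% interval 0.08 to 0.75), with an unadjusted p of 0.0180 by edgeR and an adjusted p of 0.411. It was the 1 gene of 8 with an unadjusted p under 0.05 in that comparison (9.08% of all genes), and against anti-Lag3 there were 0 (9.46% of all genes). Against anti-Lag3 the log2 fold change of Cyp51 was 0.24 (95% interval -0.10 to 0.57).

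For Lss the log2 fold change of CB was 0.71 against anti-PD-L1 (95% interval -0.04 to 1.47) and 0.22 against anti-Lag3 (95% interval -0.53 to 0.97). The rise of Cyp51 in CB against isotype is therefore not shown to differ from its value under either antibody alone. For anti-PD-L1 against anti-Lag3, 0 of the 8 were called or had an unadjusted p under 0.05 by edgeR, and DESeq2 and limma called 0 as well. Over all genes 0% were called by edgeR in that comparison, and 4.69% had an unadjusted p under 0.05.

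The interaction asks whether the effect of CB departs from the sum of the single antibodies on the log2 scale. It was called for 0 of the 8 genes by edgeR, DESeq2 and limma, with 0 at an unadjusted p under 0.05 by edgeR (5.93% of all genes), and for 0% of all genes by edgeR. For Cyp51 it was -0.06 (95% interval -0.54 to 0.41) and for Lss -0.33 (95% interval -1.40 to 0.75). The intervals are wide enough to hold departures in both directions.

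Ordered by group mean, isotype was the lowest group for 6 of the 8 genes: Cyp51, Lss, Sqle, Fdps, Hmgcs1 and Insig1. For Cyp51, Lss, Sqle and Fdps the order was isotype, anti-PD-L1, anti-Lag3, CB. For Hmgcs1 anti-Lag3 was the highest, and for Insig1 anti-PD-L1. In Idi1 and Fdft1, 2 groups lay below isotype. Mice of neighbouring groups in these orders overlapped for each of the 8 genes. How many of all genes have isotype as the lowest group was not counted. The treated groups are all set against the same isotype mice, so the orders are descriptions.

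Mouse by mouse, the 8 genes varied only loosely together. Of their 28 pairs, 24 had a Pearson correlation of log2 CPM above 0 over the 12 mice, with a median of 0.23 and a range from -0.20 to 0.76. The highest were Sqle with Cyp51 (0.76), Hmgcs1 with Cyp51 (0.72) and Lss with Cyp51 (0.63); pairs with Fdft1 or Idi1 stayed below 0.3 except Hmgcs1 with Idi1 (0.53) and Fdft1 with Insig1 (0.32). The 12 mice hold the 4 groups, and the genes of a pair share library and depth, so these are descriptions.

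Averaged over the 8 genes as standard deviations from each gene's own mean, the 3 isotype mice stood at -0.73, -0.61 and -0.32. The anti-PD-L1 mice lay close to the middle, at 0.04, -0.09 and -0.12. The anti-Lag3 mice, at 0.85, -0.57 and 0.47, and the CB mice, at 0.28, -0.34 and 1.14, were spread widely, and replicate 2 was the lowest of both these groups.

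**Figure D3:**
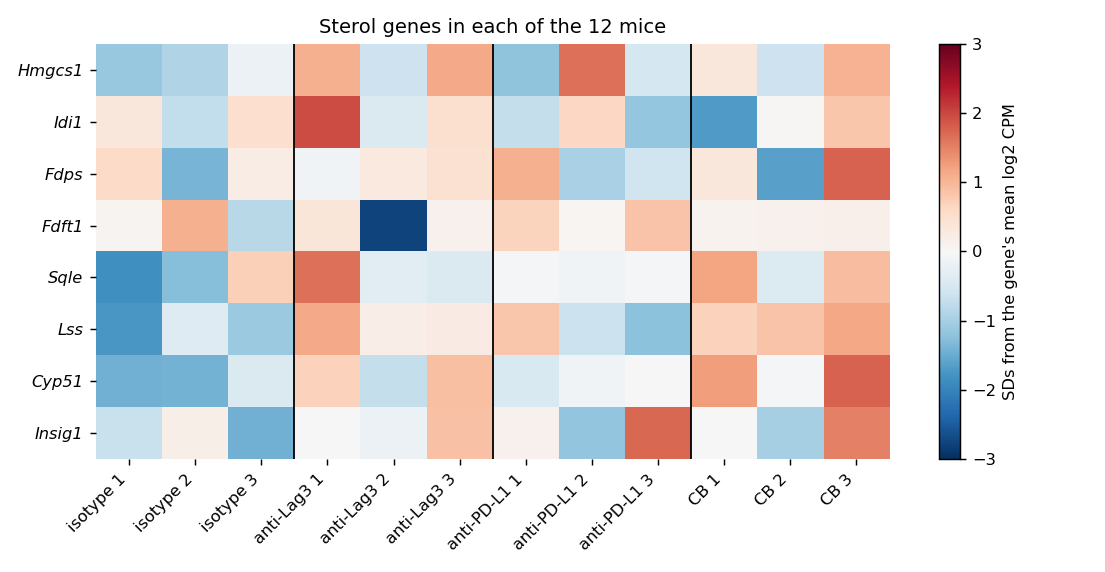
Level of the 8 genes (rows) in the 12 mice (columns, grouped by antibody), coloured by the distance of log2 CPM from the gene's mean over all mice in standard deviations, red above and blue below. The isotype mice are mostly blue (row averages per mouse of -0.73, -0.61 and -0.32), and CB replicate 3 is red in every row except Fdft1, where it is near the mean.

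The 8 genes outside the sterol and lipid lists most like this averaged profile, by Pearson correlation over the 12 mice among genes with a mean of at least 30 reads, were Brix1 (0.88), Rnf103 (0.88), Paxx (0.86), Tmem104 (0.85), Iqcb1 (0.83), Gnl3l (0.83), Mrps24 (0.83) and 2410131K14Rik (0.82). Brix1, a factor of ribosome assembly, went from a mean of 69.1 CPM in isotype to 119.7 CPM in CB. This was a called rise (adjusted p = 0.00509), where 2.33% of all genes were called higher. The other 7 were not called in that comparison. The 8 were picked for likeness to a profile in which the isotype mice were low, so a rise over isotype is not separate evidence. With 2 other measures of likeness, 5 and 7 of the 8 recurred.

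Beyond the 8, the rest of the pathway was read from 6 lists of 68 genes, of which 63 passed the filter. In CB against isotype, 5 of the 63 were called higher and 1 lower, where 2.33% and 1.96% of all genes were. In the other 6 comparisons edgeR called 0 of the 63, where 0% to 0.694% of all genes were. At an unadjusted p under 0.05 there were 0 to 8 of the 63, where 4.69% to 9.46% of all genes passed. In CB against anti-Lag3, DESeq2 called 2 (Lbr lower and Tmem97 higher) and limma 1 (Tmem97 higher), and neither called any in the rest. Over all genes, calls in CB against anti-Lag3 ranged from 39 to 280 across the alternative settings.

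Of the 13 other enzymes of sterol synthesis, 0 were called by edgeR in CB against isotype. Of these, 8 were above 0, where 48.8% of all genes were, with a median of 0.22. At an unadjusted p under 0.05, 1 was higher and 1 lower, where 7.64% of all genes were higher and 7.26% lower. Lbr, a nuclear envelope protein that is also a sterol reductase, had the smallest p, with a mean of 513 CPM in isotype and 421 CPM in CB, a log2 fold change of -0.28 (95% interval -0.46 to -0.11, adjusted p = 0.0553). DESeq2 and limma called it lower. Msmo1, which removes further methyl groups downstream of Cyp51, came next, at 34.8 CPM in isotype and 45.6 CPM in CB, a log2 fold change of 0.39 (95% interval 0.00 to 0.78, adjusted p = 0.335).

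Of the 11 genes of SREBP processing, 1 was called, and it was the transcript of SREBP2 itself. Srebf2 was at 166, 152 and 163 CPM in isotype and at 112, 113 and 112 CPM in CB. The 3 CB mice were nearly alike and all below every isotype mouse. Srebf2 was named for its call in this comparison, so the separation is not separate evidence. Srebf2 fell by 0.51 on the log2 scale in CB (SE 0.13, adjusted p = 0.0174), opposite in sign to Cyp51. With anti-Lag3 it was at 149.9, 135 and 138 CPM and with anti-PD-L1 at 160.1, 116 and 114 CPM, and neither comparison was called. The call was lost without isotype replicate 1 (adjusted p = 0.0694), isotype replicate 3 (0.0533), CB replicate 1 (0.0617) or CB replicate 3 (0.0716), and when tested against a log2 fold change of 0.2 by edgeR (0.0883) or DESeq2 (0.350). Scap, the escort of SREBP2, had the next smallest p, and its log2 fold change was 0.32, at an adjusted p of 0.377. Gm49502, which overlaps Srebf2 on the same strand, held 706 reads against 31363.

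Among the 8 tested genes of sterol uptake and transport (of 9 listed), 1 was called. Tmem97, a sterol-responsive membrane protein that binds the lysosomal cholesterol exporter Npc1, was at 37.8, 39.2 and 40.3 CPM in isotype and at 69.8, 55.2 and 61.9 CPM in CB. All CB mice were above all isotype mice, as in 10.4% of all genes. Tmem97 was named for its call in this comparison, so the separation is not separate evidence. Tmem97 was at 38.0, 28.2 and 44.6 CPM with anti-Lag3 and at 46.0, 53.1 and 39.6 CPM with anti-PD-L1. It rose 1.59-fold in CB against isotype (log2 fold change 0.67, SE 0.19, adjusted p = 0.0360), and against anti-Lag3 its log2 fold change was 0.76 (adjusted p = 0.0571 by edgeR, called by DESeq2 and limma). The call against isotype was lost without isotype replicate 1, 2 or 3 (adjusted p = 0.120, 0.105 and 0.0775) and without CB replicate 1 or 3 (0.174 and 0.108), and when tested against a log2 fold change of 0.2 by edgeR (0.101) or DESeq2 (0.428). Npc1, with a mean of 24.3 CPM in isotype and 14.7 CPM in CB, had a log2 fold change of -0.73 (adjusted p = 0.254).

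Genes that remove or store sterol showed no call by edgeR. Of the 8 tested (of 11 listed), 2 were above 0 and 6 below, where 48.8% of all genes were above 0. The median was -0.26, and 2 were lower at an unadjusted p under 0.05, where 7.26% of all genes were. Abcg1, a sterol exporter, had a mean of 35.1 CPM in isotype and 21.8 CPM in CB, a log2 fold change of -0.69 (95% interval -1.13 to -0.24, adjusted p = 0.0744), and DESeq2 and limma called it lower. Soat1, which esterifies cholesterol for storage, had a log2 fold change of -0.54 (adjusted p = 0.285).

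The isoprenoid branch leads from farnesyl pyrophosphate to prenylated proteins, dolichol and ubiquinone. Of its 12 genes, 0 were called by edgeR, DESeq2 or limma in CB against isotype. At an unadjusted p under 0.05 by edgeR, where 7.64% of all genes were higher, 2 of the 12 were. These were Rabggtb, a subunit of the enzyme that prenylates Rab proteins, whose log2 fold change was 0.41 (95% interval 0.13 to 0.69, adjusted p = 0.102), and Ggps1, which makes geranylgeranyl pyrophosphate, with 0.38 (adjusted p = 0.335). The list had 8 of 12 above 0, where 48.8% of all genes were, and a median of 0.26.

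Fatty acid synthesis, which is driven mainly by the sister factor SREBP1, had the most calls. Of its 11 tested genes (of 12 listed), 4 were called higher in CB against isotype and 0 lower, where 2.33% and 1.96% of all genes were. The log2 fold changes of the list had a median of 0.17, with 8 above 0 and 3 below. The lowest, at -1.01, was larger in size than any of the rises and was not called. Acaca, acetyl-CoA carboxylase, was at 25.5, 25.6 and 27.5 CPM in isotype and at 45.1, 34.95 and 61.5 CPM in CB. Its log2 fold change was 0.85 (SE 0.22, adjusted p = 0.0193). Fasn, fatty acid synthase, was at 126, 123 and 86.2 CPM in isotype and at 208, 154 and 151 CPM in CB, a log2 fold change of 0.61 (SE 0.15, adjusted p = 0.0155).

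Elovl6, which lengthens the product of Fasn, was at 24.2, 14.9 and 16.7 CPM in isotype and at 27.6, 35.7 and 46.2 CPM in CB. Its log2 fold change was 0.97 (SE 0.27, adjusted p = 0.0385). Fads2, a desaturase of polyunsaturated fatty acids, was at 24.1, 30.4 and 23.5 CPM in isotype and at 53.8, 31.4 and 64.7 CPM in CB, a log2 fold change of 0.94 (SE 0.24, adjusted p = 0.0179). In each of these 4 genes every CB mouse was above every isotype mouse, by little in Fads2 and Elovl6, where 10.4% of all genes showed this. The 4 were picked by their call in the same comparison, so the separation is not separate evidence. In CB against each single antibody and in the interaction, none of the 4 was called by edgeR, DESeq2 or limma.

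These calls were also lost in some fits that left out 1 mouse, which hold fewer mice in 1 group. In some of them the log2 fold change moved little. That of Acaca was 0.83 without isotype replicate 1 or 2, against 0.85 with all mice. That of Elovl6 was 0.99 without CB replicate 2, against 0.97. Without CB replicate 3 the values were lowest for Acaca (0.61), Elovl6 (0.77) and Fads2 (0.71). For Fasn the lowest was 0.45, without CB replicate 1. The call on Acaca was lost without isotype replicate 1 or 2 (adjusted p = 0.0734 and 0.0711) or CB replicate 3 (0.223), and that on Fasn without isotype replicate 3 (0.117) or CB replicate 1 (0.148). The call on Elovl6 was lost without isotype replicate 2 or 3 (0.182 and 0.128) or CB replicate 2 or 3 (0.0855 and 0.259). The call on Fads2 was lost without isotype replicate 1 or 3 (0.0822 and 0.0736) or CB replicate 1 or 3 (0.0748 and 0.191). Tested against a log2 fold change of 0.2, edgeR kept the call on Fads2 and lost those on Acaca (0.0542), Fasn (0.0599) and Elovl6 (0.0805), while DESeq2 lost all 4 (Acaca 0.231, Fasn 0.319, Elovl6 0.291 and Fads2 0.206).

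**Figure D4:**
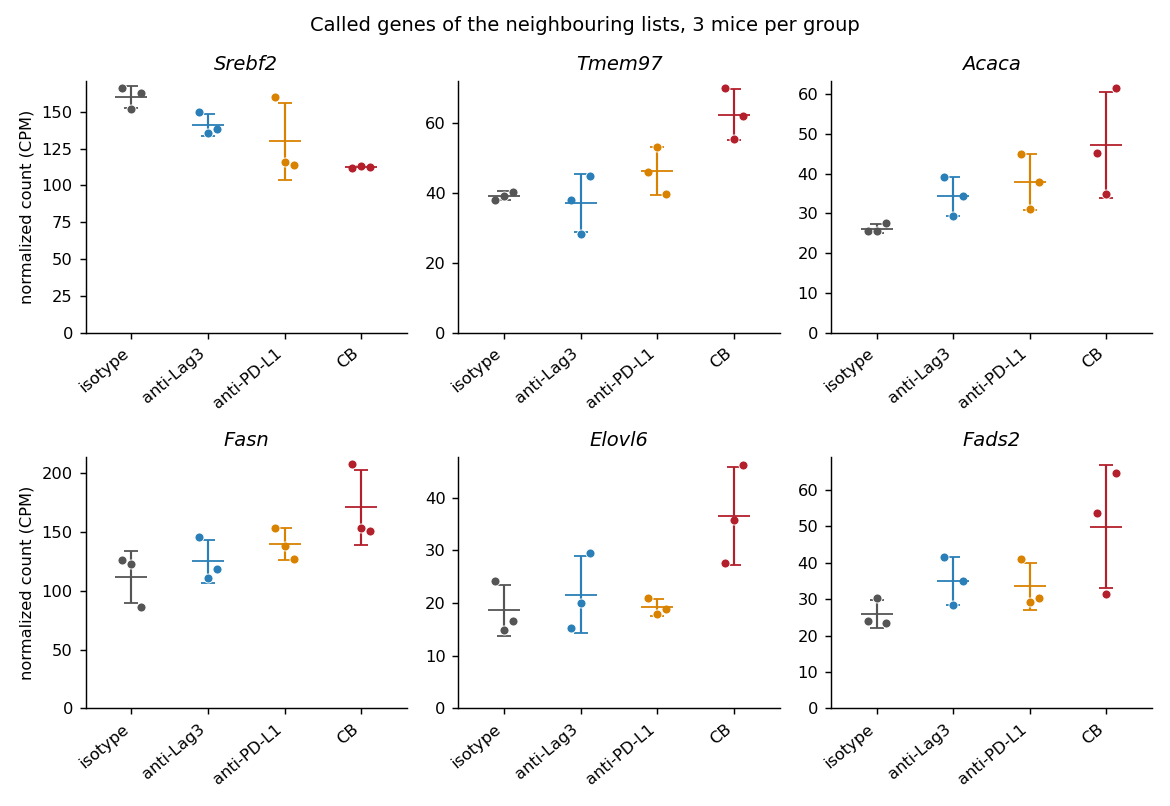
Normalized count (CPM, linear axis from 0) per mouse of the 6 genes called in CB against isotype among the 6 lists beside the 8 genes; points are mice, dashes group means and bars 1 SD (n = 3). Srebf2 is lower in CB (112 to 113 CPM) than in isotype (152 to 166 CPM), and the other 5 genes are higher in CB.

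**Figure D5:**
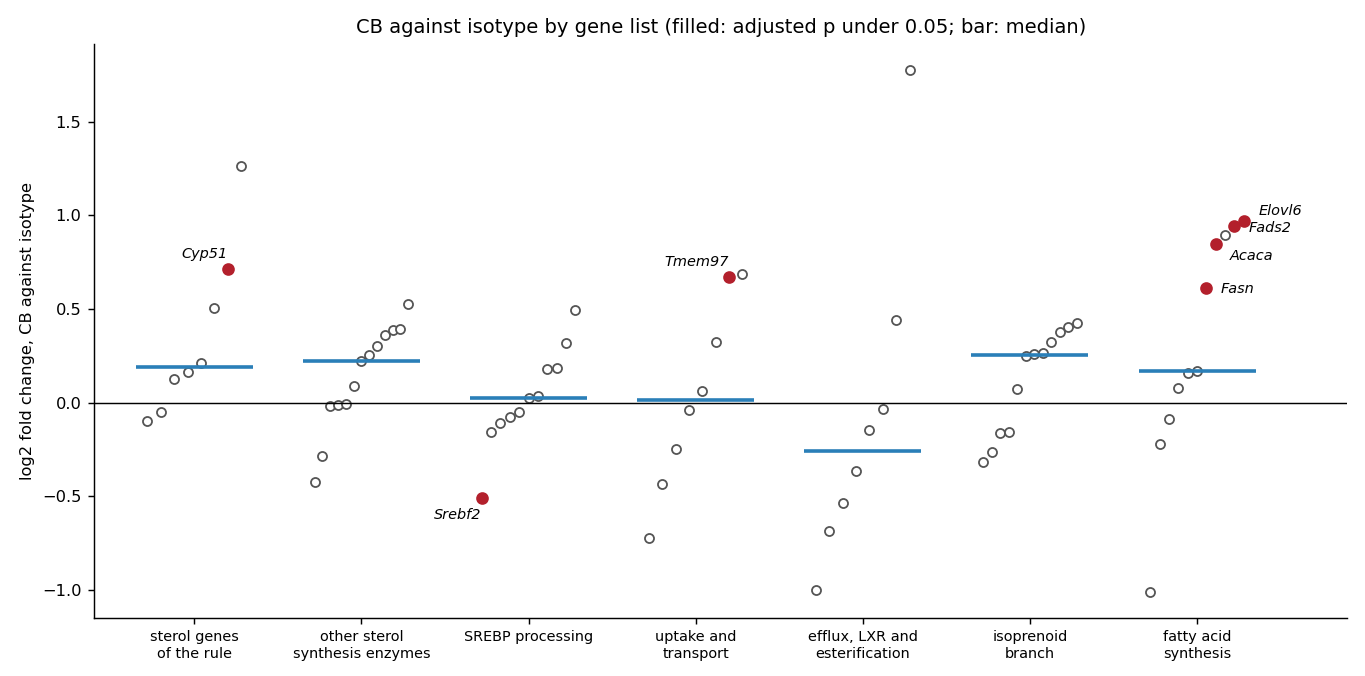
Log2 fold change in CB against isotype (vertical axis) of each tested gene, by list; each point is a gene, filled and named where called, and blue bars are list medians. Medians lie between -0.26 (efflux, LXR and esterification) and 0.26 (isoprenoid branch), and the 7 called genes are Cyp51, Srebf2, Tmem97 and 4 genes of fatty acid synthesis.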

How the data were processed

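RNA of sorted splenic CD4+ T cells from 12 mice was sequenced by QuantSeq 3′ mRNA-seq. The authors trimmed reads with Cutadapt 1.18, aligned them with STAR 2.6.1a to GRCm38, counted uniquely mapped reads per gene with featureCounts 1.6.4 and deposited raw counts; the deposited rlog values, regularised log2 counts from DESeq2, were used in an alternative only. Strand setting and annotation release are not given in the sources used here, and 114 spike-in transcripts were left out. Groups follow the labels. Of 56691 genes, 52073 had a symbol. Genes with at least 30 reads over the samples (15138) were tested in edgeR 4.0.16 (R 4.3.3; TMM, quasi-likelihood, 4 group means, Benjamini-Hochberg threshold 0.05) in 7 comparisons. Alternatives were DESeq2 1.42.0, limma 3.58.1 on rlog, other scalings, filters and samples, a replicate block, and leaving out each of the 12 samples. Code was tested on simulated data. All 8 genes of the list, and of the other lists each called gene and the 2 with the smallest p in CB against isotype, are named; Akap9, Ctsb, Gm49502 and the marker genes were named after their values were seen. Members and lists were chosen with earlier results of these data known. Some further genes of the pathway are not reported here. No 2 samples of the same group agreed within sampling noise, and samples of different groups were not compared in this way.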

Additional observations from a re-analysis of the deposited data

How the results depend on the processing

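Of the 8 sterol genes, 2 (Cyp51 and Lss) were called in CB against isotype with DESeq2, without a filter, with the filterByExpr filter, with only the groups compared and with limma on rlog, and 0 with DESeq2 tested against a log2 fold change of 0.2. Leaving out each sample in turn gave 0 to 2. Settings also differed in their calls over all genes, which lay between 233 and 918 in this comparison. The share of all genes called is not given here for each setting. Fitting the replicate number as a block also gave 2, with an adjusted p of 0.0355 for Lss. The numbers were not taken to pair the samples: deviations of same-numbered mice from their group means correlated between -0.061 and 0.12 (median 0.061), with 2 of 18 pairs over 0.1. Mice with different numbers had a median of -0.015 and 0 of 36 pairs over 0.1, and 8 of 12 mice correlated best with their own number, a hint of pairing from the data that the labels do not give. The study's methods say that mice were sorted in batches holding each condition, but the labels do not give them. The study also reads the second axis of its principal component analysis as largely an effect of the sorting batches. The log2 fold change of Cyp51 stayed above 0 in all 22 alternatives (0.43 to 0.87), as did that of Lss (0.27 to 1.52, the lowest on the shrunken rlog scale), and no called gene reversed. Of the 6 other called genes of the pathway lists, the test against 0.2 kept 1 by edgeR (Fads2) and 0 by DESeq2. In the other 6 comparisons 0 of the 8 were called under any alternative. Over all genes, calls ranged from 233 to 918 (649 as reported) in CB against isotype, 3 to 178 (56) in CB against anti-PD-L1, 39 to 280 (105) in CB against anti-Lag3, 0 to 56 (5) in anti-PD-L1 against isotype and 0 to 14 (0) in anti-Lag3 against isotype; the cause was not tested. With 3 mice per group, intervals are wide and p-values cover these mice only.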
